A study of Mus musculus with 4 samples.

Results

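The autophagy genes of bone cell cultures labelled as osteocytes were taken by symbol: every gene whose name starts with Atg and a digit, together with Map1lc3a, Map1lc3b, Gabarap, Gabarapl1, Gabarapl2, Ulk1, Ulk2, Becn1, Sqstm1, Wipi1, Wipi2, Optn, Nbr1, Uvrag, Pik3c3 and Rb1cc1. This rule found 35 of the 37411 genes in the count table, and all 35 had enough counts to be tested. They are compared here between cultures from mice lacking the nuclear receptor PPARα (αKO) and from wild-type mice (WT).

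Macroautophagy is the process by which a cell encloses part of its cytoplasm in a double membrane, the autophagosome, and delivers it to the lysosome for digestion. A kinase complex around ULK1 starts the process, a phosphatidylinositol 3-kinase marks the membrane, lipid carriers let it grow, and conjugation enzymes attach the ubiquitin-like LC3 and GABARAP proteins to it, where cargo receptors bind. Osteocytes live enclosed in mineralized bone, and loss of core autophagy genes from bone cells of mice is known to lower bone mass. In mouse liver, PPARα is known as an activator of autophagy genes during fasting.

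RNA was sequenced from 4 libraries, 2 of αKO (global PPARα knock-out) and 2 of WT mice, called biological replicates in the labels without naming animals. All were osteocyte fractions of the femur of C57BL/6 mice aged 5 months, kept 6 days ex vivo with no treatment, as the labels have it. The study's methods name another mouse background, an older age and a longer culture, and the header of the deposited comparison names the solvent DMSO for both genotypes, so strain, age, culture time and vehicle are uncertain. The knock-out is global, so no cell type of the animal has the receptor, and the targeted allele carries a cassette in place of coding sequence.

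Counts summed to 25136628 to 27496137 per library. Ppara itself was near the floor, with 15 and 9 counts in αKO and 16 and 13 counts in WT cultures, so its counts could not check the genotype. Of the markers of mature osteocytes, Sost and Fgf23 had no count in any library and Mepe had 0 to 4. CPM are counts scaled to the library size after its correction by edgeR's TMM factor. The summed level of 8 osteocyte markers was 83.4 and 53.9 CPM in αKO and 233 and 269 CPM in WT cultures. Most of this sum was Pdpn, at 76.3 and 31.7 CPM in αKO and 196 and 201 CPM in WT. Dmp1 was at 0.88 and 4.44 CPM in αKO and 11.5 and 17.5 CPM in WT. Ptprz1 was at 2.29 and 2.70 CPM in αKO and 17.4 and 7.81 CPM in WT. Phex and Irx5 overlapped between genotypes. All 5 osteocyte markers tested had log2 fold changes below 0, and 3 did not overlap, beside 33.2% of all genes tested. Because these markers were sparse, the samples are called cultures here. Of 8 osteoblast markers, 7 had log2 fold changes below 0, with a median of -1.32. Without overlap were 3 of the 8 (Runx2, Sp7 and Bglap), beside 33.2% of all genes tested. Leaving out WT replicate 1 put Alpl at 0.06, Ibsp at 0.06 and Postn at 0.53. Runx2, Sp7 and Bglap stayed below 0, which their lack of overlap nearly fixed in advance. The summed level of the osteoblast markers was 9768 and 11000 CPM in αKO and 13910 and 11970 CPM in WT. Postn alone was at 4540 CPM in WT replicate 1 and 681 CPM in WT replicate 2. All 12 macrophage markers were higher in both αKO libraries than in both WT libraries, and their summed level was 28810 and 23960 CPM in αKO and 18650 and 11110 CPM in WT cultures. In bulk RNA, fewer cells of a type and less RNA per cell cannot be told apart, and the part of these marker differences in the values of the autophagy genes was not tested. The WT libraries stood farther apart from each other than the αKO libraries did, with a median gap of 0.68 against 0.31 on the log2 scale over 13571 genes tested, and the gap moved with the GC content of the transcript.

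The LC3 and GABARAP genes encode the proteins that end up on the membrane, and their coding ends are shown because this is where the protease ATG4 acts. It cuts after a glycine near the end of the protein, whose codon is in capitals, and the exposed glycine is then joined to phosphatidylethanolamine. The last 60 coding bases, stop codon included, come from GENCODE M21 on GRCm38, the same build as the authors' mm10.
Map1lc3a: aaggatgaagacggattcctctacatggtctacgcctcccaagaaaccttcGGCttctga
Map1lc3b: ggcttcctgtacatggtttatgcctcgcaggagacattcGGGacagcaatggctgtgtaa
Gabarap: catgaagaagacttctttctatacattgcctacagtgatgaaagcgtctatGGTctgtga
Gabarapl1: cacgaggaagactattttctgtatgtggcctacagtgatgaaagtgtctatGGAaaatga
Gabarapl2: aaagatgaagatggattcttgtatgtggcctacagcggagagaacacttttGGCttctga
The glycine is codon 120 of Map1lc3a and Map1lc3b and codon 116 of the 3 GABARAP genes. A single codon follows it in every member but Map1lc3b, where 5 follow. Over their 354 coding bases, Gabarap and Gabarapl1 were 74.9% identical, Gabarap and Gabarapl2 61.9%, and Gabarapl1 and Gabarapl2 63.8%. The coding sequences also differed in base composition, from 47.7% GC in Gabarap to 57.4% in Map1lc3a. The comparison of replicate libraries below uses the GC content of the whole transcript instead. On that measure this family ran from 45.3% in Gabarapl2 to 63.1% in Map1lc3a.

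Gabarap and Sqstm1 were the most abundant autophagy transcripts of these cultures. Levels of different genes were compared in the authors' TPM, which divides reads by transcript length before scaling to the library. Gabarap was at 966 and 807 TPM in αKO and at 1318 and 728 TPM in WT cultures. Sqstm1, which encodes the cargo receptor p62, was at 569 and 839 TPM in αKO and at 576 and 1333 TPM in WT cultures. Which of the 2 was more abundant depended on the library and not on the genotype: the ratio of Gabarap to Sqstm1 in TPM was 1.70 and 2.29 in replicates 1 of αKO and WT, and 0.962 and 0.546 in replicates 2. Among 37411 genes, Gabarap ranked between 73 and 175 by TPM and Sqstm1 between 75 and 247.

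The remaining members formed a wide range below these genes. Gabarapl1 followed with a mean of 192 TPM over the 4 libraries, then Map1lc3b with 124 TPM and Atg3, the conjugating enzyme of LC3, with 119 TPM. These neighbours were not apart beyond their spread, since Atg3 ran from 88.4 to 174 TPM and Map1lc3b from 118 to 141 TPM. Genes of the initiating kinase complex lay between 10.5 and 77.1 TPM, those of the phosphatidylinositol 3-kinase between 14.4 and 62.2 TPM, and the LC3 proteases between 5.02 and 39.0 TPM. At the low end, Atg9b, a paralog of the membrane protein gene Atg9a, was at 1.04 to 1.74 TPM, against 11.6 to 21.2 TPM for Atg9a. Atg4a-ps, a copy of Atg4a that shares 66.3% of its words of 50 bases with it, was at 0.80 to 2.94 TPM, and its reads and those of Atg4a may have been split by the counting.

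**Figure D1:**
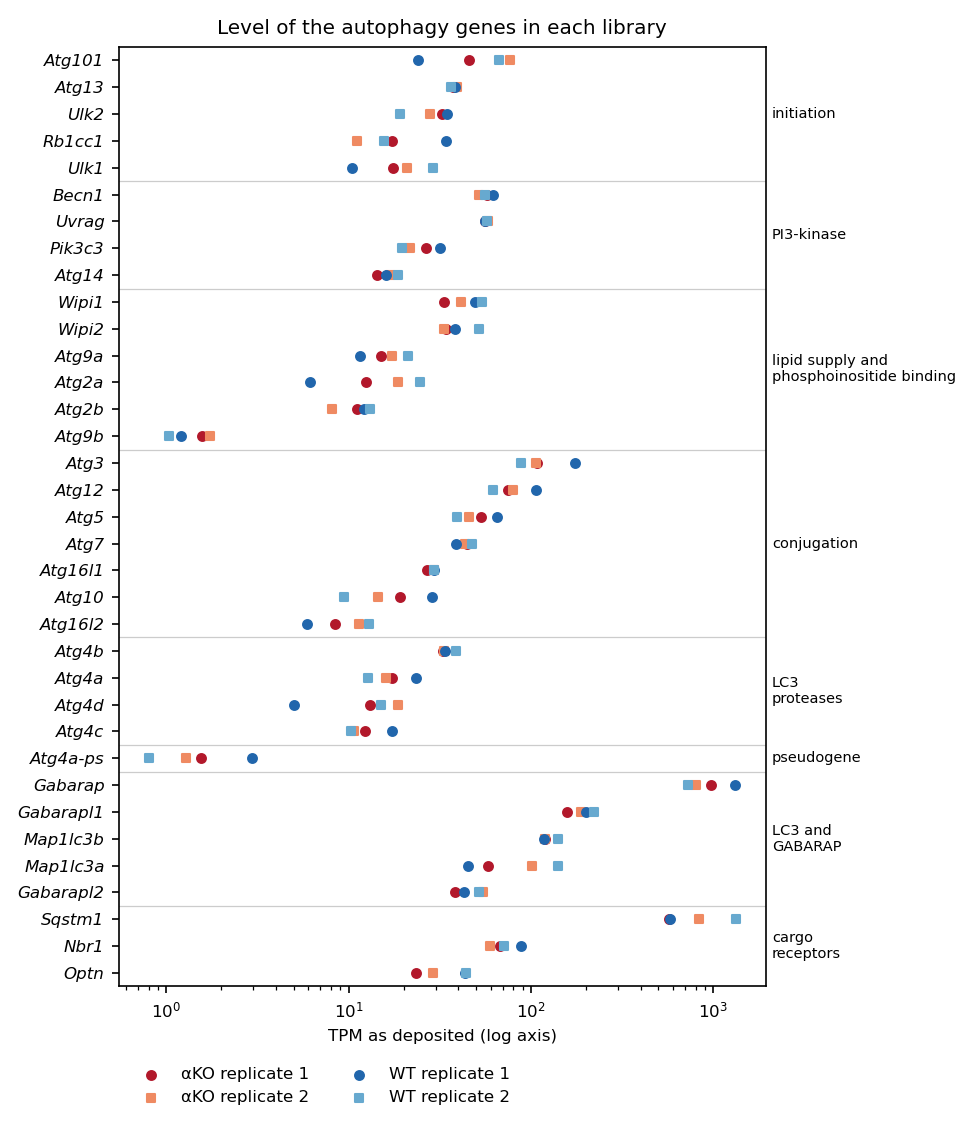
Level of each of the 35 autophagy genes in TPM as deposited (log axis), 1 point per library, grouped by role and ordered by mean level within a role. Gabarap and Sqstm1 lie highest, up to 1318 and 1333 TPM, Atg9b and Atg4a-ps lowest, and in Gabarap, Atg2a and Map1lc3a the blue points of WT lie on either side of the αKO points.

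No autophagy gene passed the test between genotypes. edgeR's quasi-likelihood test called 0 of 35 members at an adjusted p of 0.05, as were 0% of all 13571 genes tested. At an unadjusted p under 0.05 the count was 0 of 35, against 5.39% of all genes, and the smallest p among the members was 0.131, for Optn. Its adjusted p was 0.990, and that of each other member 0.9998. DESeq2 called 0 members and 0.368% of all genes, edgeR's likelihood ratio test 0 members and 0.206%, and limma voom 0 members and 0%. The fitted log2 fold change of αKO over WT was above 0 in 22 members and below 0 in 13, from -0.62 to 0.79, with a median of 0.05 against -0.01 for all genes. With library sizes alone as the scaling, 15 were above 0 and 20 below, and the medians were -0.03 for the members and -0.09 for all genes. The 95% interval of a member's log2 fold change reached a median of 0.90 to either side, and was narrower in members such as Becn1 and Nbr1, so differences smaller than a member's own interval were not detectable with these 4 libraries. Without WT replicate 2, where the αKO pair alone sets the spread, the log2 fold change was 1.56 for Atg2a and 1.86 for Atg4d. With all 4 libraries it was 0.16 for Atg2a and 0.79 for Atg4d.

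**Figure D2:**
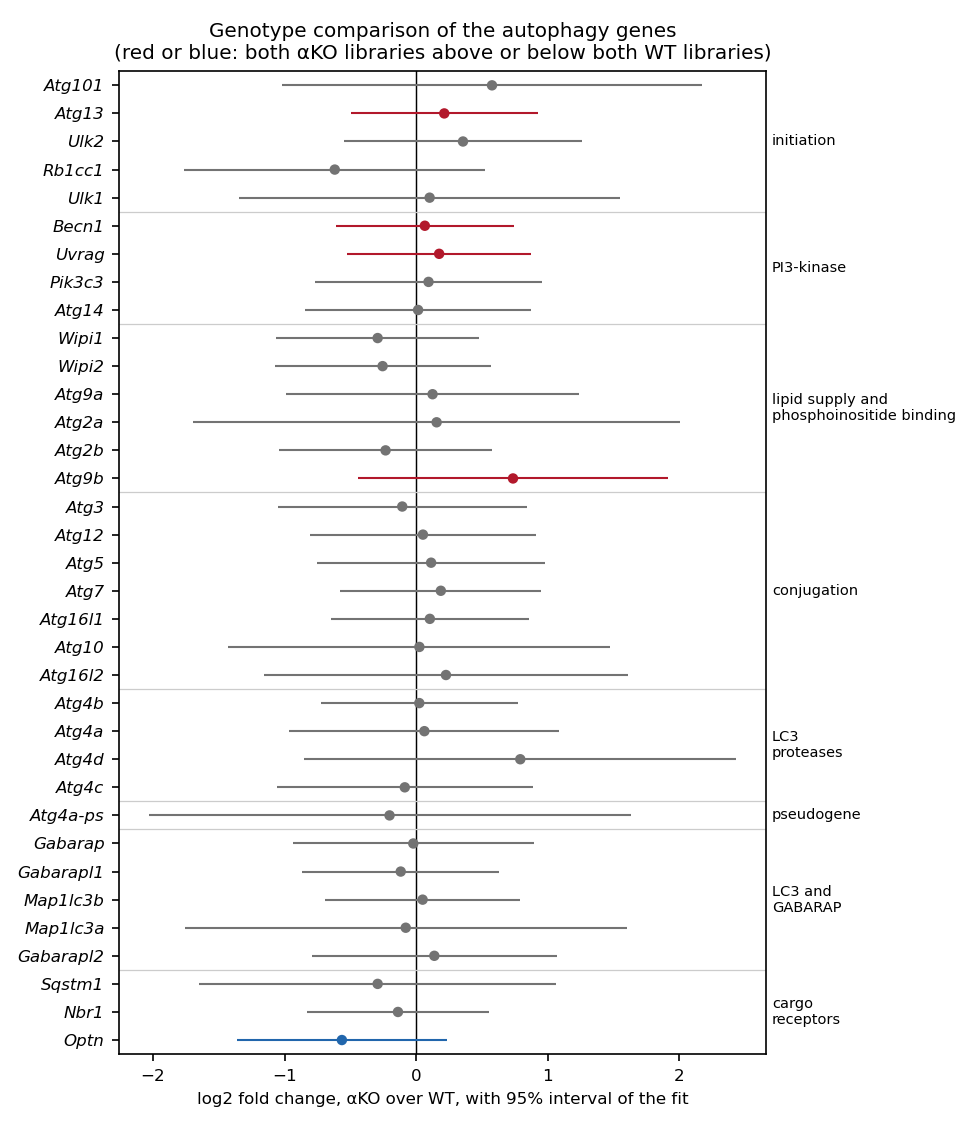
Log2 fold change of αKO over WT with the 95% interval of edgeR's quasi-likelihood fit (x axis) for each of the 35 autophagy genes, grouped by role, n = 2 libraries per genotype. Every interval includes 0. Colour marks the 5 genes whose αKO libraries both lay above (red) or below (blue) both WT libraries in CPM.

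A weaker question is which genes had both αKO libraries on the same side of both WT libraries in CPM scaled by TMM. There were 5 such members of 35. This is below the share among all genes tested, of which 33.2% did not overlap, 17.1% with αKO above and 16% with αKO below WT. Atg13, Uvrag, Becn1 and Atg9b were higher and Optn was lower in αKO cultures. The names turned with the scaling. Optn was lower under all 5 scalings tried, and Atg9b higher under all but the removal of the GC trend. Becn1 overlapped under each of the other 4. With library sizes alone, 7 members did not overlap, against 33.8% of all genes tested. Of these, 2 were higher in αKO cultures (Atg13 and Atg9b) and 5 lower (Atg2b, Wipi1, Wipi2, Optn and Nbr1). In the deposited TPM 9 members did not overlap, 8 of them lower in αKO cultures (Atg16l1, Atg2b, Atg4b, Gabarapl1, Wipi1, Wipi2, Optn and Nbr1), against 1 of 5 in CPM. Of all genes tested, 35% did not overlap in TPM.

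Optn had the smallest p and was the one member whose genotypes did not overlap under any of the 5 scalings. It encodes optineurin, a receptor that carries ubiquitinated cargo and damaged mitochondria to LC3, and lies on the minus strand of chromosome 2 from 5020642 to 5064051 (GRCm38). In αKO cultures it had 694 and 841 counts, against 1130 and 1220 in WT. In CPM this was 26.4 and 33.9 in αKO against 42.3 and 47.0 in WT, a mean of 30.2 ± 5.29 (SD, n = 2) against 44.6 ± 3.28 (SD, n = 2). Both αKO libraries thus lay under both WT libraries, and the 2 WT libraries lay close together. The log2 fold change was -0.56 (SE 0.315, 95% interval -1.36 to 0.24, edgeR's quasi-likelihood adjusted p = 0.990), or 1.48-fold lower. With an offset for GC content it was -0.58 at an unadjusted p of 0.0331, and an adjusted p of 0.404, in the same test. Without each library in turn it ran from -0.74 to -0.40. Because its libraries did not overlap, leaving out 1 of them could hardly turn the sign, so this range shows size only.

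The other cargo receptors had values below 0 as well, but their libraries overlapped in CPM scaled by TMM. With library sizes alone, in the deposited TPM and with the GC trend removed, Nbr1 was lower in αKO without overlap. Nbr1, whose product binds ubiquitin and LC3 beside p62, was at 154 and 140 CPM in αKO and 171 and 152 CPM in WT cultures. Sqstm1 was at 695 and 1058 CPM in αKO and 607 and 1541 CPM in WT cultures. The WT libraries thus enclosed both αKO libraries for Sqstm1, and a gap of 2.54-fold within WT exceeded the gap between genotypes. Of the summed TPM of the 3 receptors, Sqstm1 took 86.2% and 90.4% in αKO and 81.5% and 92.1% in WT, while Optn took 3.54% and 3.13% in αKO and 6.14% and 3.03% in WT. The share of Optn therefore overlapped between genotypes even though its level did not. A gene on the other strand, Mrnip, overlaps Sqstm1, and because the strand setting of the counting is not given in the sources used here, their shared reads cannot be told apart.

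The LC3 and GABARAP genes did not part the genotypes in CPM scaled by TMM. In all 5 the αKO and WT libraries overlapped there, and the log2 fold changes ran from -0.12 to 0.14. In the deposited TPM, Gabarapl1 was lower in αKO without overlap, as were 35% of all genes in either direction. With the GC trend removed, Gabarapl1 and Map1lc3a were lower in αKO without overlap, against 47.5% of all genes in either direction. Gabarap, which acts late in the closing and fusion of autophagosomes, was at 565 and 487 CPM in αKO and 665 and 403 CPM in WT. Its log2 fold change was -0.02 (SE 0.360). The WT pair again enclosed the αKO pair. Map1lc3b, which encodes the LC3 form that is commonly used to follow autophagosomes, was at 147 and 152 CPM in αKO and 125 and 164 CPM in WT. Its log2 fold change was 0.05 (SE 0.291). Its αKO libraries nearly coincided between the 2 WT values. Map1lc3a, the paralog with the highest GC content of all members (63.1%), was at 27.9 and 50.2 CPM in αKO and at 18.7 and 63.9 CPM in WT. Its log2 fold change was -0.08 (SE 0.660), and from -0.68 to 1.03 as each library was left out. The direction of Map1lc3a thus turned with the library that was left out, in αKO as well as in WT. Gabarapl1 was at 125 and 153 CPM in αKO and 136 and 166 CPM in WT, with a log2 fold change of -0.12 (SE 0.294). Gabarapl2, known from membrane traffic in the Golgi as well, was at 27.8 and 41.1 CPM in αKO and 26.7 and 35.8 CPM in WT, with a log2 fold change of 0.14 (SE 0.366). Under changes of scaling, test or libraries, each of these 5 genes changed the sign of its fold change at least once. Part of the words of 50 bases in Gabarapl1 (23.1%), Gabarapl2 (12.2%) and Map1lc3b (6.01%) also occur in other annotated transcripts, among them an antisense gene of Gabarapl1, so a share of their counts is uncertain.

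The make-up of the family was alike in the genotypes and differed between replicates. Gabarap held 72.1% and 63.5% of the family's summed TPM in αKO and 76.5% and 56.7% in WT cultures. Map1lc3a held 4.33% and 7.96% in αKO and 2.62% and 10.9% in WT. In both genotypes replicate 1 had the larger share of Gabarap and the smaller share of Map1lc3a. The family's sum was 1340 and 1271 TPM in αKO and 1724 and 1284 TPM in WT.

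**Figure D3:**
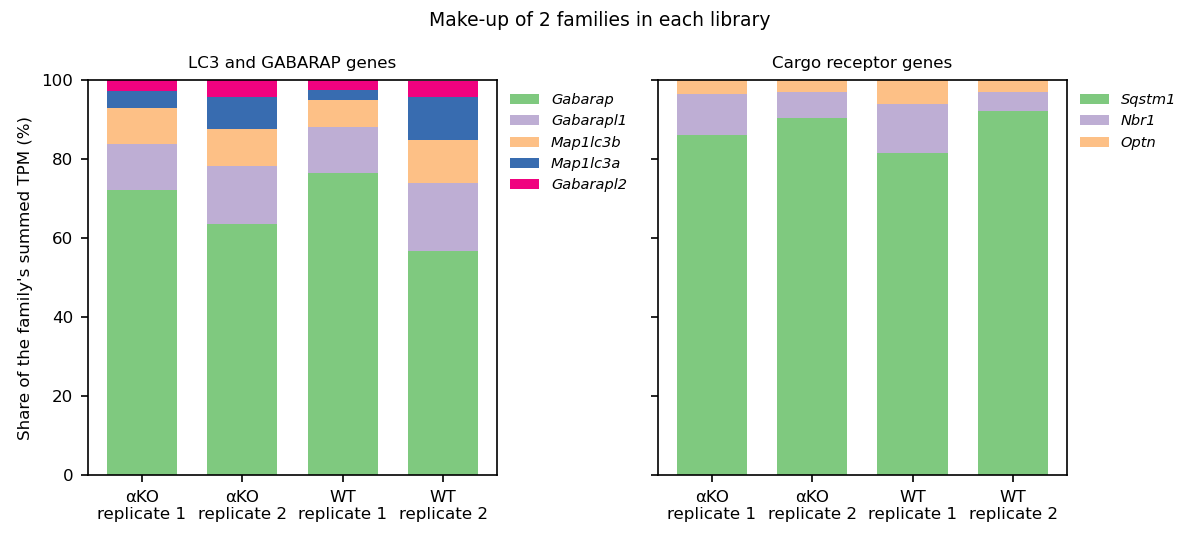
Share of the family's summed TPM (y axis, %) held by each LC3 or GABARAP gene (left) and each cargo receptor gene (right) in the 4 libraries. Gabarap takes 56.7% to 76.5% and Sqstm1 81.5% to 92.1%, and in both genotypes replicate 1 has a larger share of Gabarap and a smaller share of Sqstm1 than replicate 2.

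In the initiating complex, 4 of 5 genes had fold changes above 0 and none passed the test. Atg13, the adaptor that brings the kinase to the membrane, was at 59.5 and 64.6 CPM in αKO and 52.3 and 54.8 CPM in WT. Its αKO libraries both lay above the WT libraries, by a log2 fold change of 0.21 (SE 0.279). For the kinases the genotypes overlapped: Ulk1 was at 39.4 and 49.0 CPM in αKO and 20.5 and 61.9 CPM in WT. Ulk2 was at 81.0 and 71.8 CPM in αKO and 74.4 and 45.03 CPM in WT. The WT libraries ranked these paralogs in opposite orders, with a TPM ratio of Ulk2 to Ulk1 of 3.31 in WT replicate 1 and 0.663 in WT replicate 2, against 1.87 and 1.33 in αKO. Rb1cc1, which encodes the scaffold FIP200, was at 56.7 and 37.8 CPM in αKO and at 96.5 and 48.6 CPM in WT. It had the lowest GC content of the members (39.1%) and the lowest fold change, -0.62. With the offset for GC content, the log2 fold change of Rb1cc1 was -0.46 at an unadjusted p of 0.0348 (adjusted p = 0.410, edgeR's quasi-likelihood test). Atg101, the partner of ATG13, was at 24.4 and 42.4 CPM in αKO and 11.01 and 33.8 CPM in WT, so that its libraries overlapped too.

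All 4 genes of the phosphatidylinositol 3-kinase had fold changes between 0.01 and 0.17, above 0 but far inside their intervals. Uvrag, whose product joins the kinase in endosomes and maturing autophagosomes, was at 83 and 89.1 CPM in αKO and 71.7 and 80.8 CPM in WT. The lower αKO value lay just above the higher WT value, and the log2 fold change was 0.17 (SE 0.274). Becn1, the scaffold of the complex that BCL2 restrains, was at 118 and 110 CPM in αKO and 109 and 108 CPM in WT. Becn1 was among the steadiest members in this scaling, with a log2 fold change of 0.07 (SE 0.266) that was -0.022 with library sizes alone. Genes on the other strand, Cntd1 at Becn1 and Gm45187 at Uvrag, overlap the exons of both. Pik3c3, the catalytic subunit VPS34, and Atg14, which directs it to the forming autophagosome, overlapped between genotypes at 35.4 to 51.7 CPM and 20.7 to 26.2 CPM.

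Among the genes for lipid supply and phosphoinositide binding, 3 had fold changes above 0 and 3 below. Atg9b lies on chromosome 5 from 24384181 to 24392143, and 294 of its exonic bases overlap those of Nos3 on the other strand. As at Sqstm1, the reads that the overlapping genes share cannot be told apart. Atg9b had 70 and 75 counts in αKO and 47 and 43 counts in WT cultures, or 2.67 and 3.03 CPM against 1.76 and 1.66 CPM. Its libraries did not overlap, and the log2 fold change was 0.74 (SE 0.464, adjusted p = 0.9998 in edgeR). With the offset for GC content it was 0.26, and these are the lowest counts of any member but Atg4a-ps. Wipi1 and Wipi2 encode binders of phosphatidylinositol 3-phosphate, and WIPI2 recruits ATG16L1. Wipi1 was at 62.0 and 79.4 CPM in αKO and 78.2 and 94.9 CPM in WT, a near separation in which the higher αKO library just passed the lower WT library. Wipi2 was at 76.9 and 77.1 CPM in αKO and at 73.5 and 110 CPM in WT. With library sizes alone as the scaling, Wipi1 and Wipi2 were both lower in αKO without overlap. The same held once the trend with GC content was removed. Wipi1 was then at 61.6 and 76.1 CPM in αKO against 84.5 and 89.3 CPM in WT. Wipi2 was at 76.6 and 73.0 CPM in αKO against 81.4 and 102 CPM in WT. Atg2a and Atg2b encode the tubes that carry lipid into the growing membrane. Atg2a was at 34.3 and 53.4 CPM in αKO and at 14.5 and 64.2 CPM in WT, the widest gap within WT of all members, 4.42-fold. Atg2b was at 48.7 and 36.8 CPM in αKO and at 46.1 and 54.4 CPM in WT, and Atg9a, which shares exons with Gm29253, at 28.5 and 33.7 CPM in αKO and 18.9 and 38.1 CPM in WT.

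None of the 7 conjugation genes had libraries that parted the genotypes in CPM. They encode the E1-like enzyme ATG7, the E2-like enzymes ATG3 and ATG10, the ubiquitin-like ATG12, its target ATG5, and ATG16L1 and ATG16L2, which bind the ATG12 to ATG5 conjugate. Their log2 fold changes lay between -0.11 (Atg3) and 0.23 (Atg16l2), and edgeR's quasi-likelihood test gave a smallest p of 0.558. Atg7 was at 78.9 and 79.5 CPM in αKO and at 59.3 and 79.8 CPM in WT. Atg5 was at 54.3 and 48.3 CPM in αKO and at 57.2 and 37.7 CPM in WT, and Atg12 at 80.3 and 88.3 CPM in αKO and 99.4 and 63.4 CPM in WT. In each the αKO values lay inside the WT range. Atg16l1 varied least of the 7 over the libraries, from 35.1 to 41.8 CPM, whereas Atg10 ran from 6.24 to 17.1 CPM.

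The 4 LC3 proteases summed to nearly the same level in every library, 75.6 and 78.3 TPM in αKO and 79.8 and 77.1 TPM in WT, while their make-up moved. Atg4b, the member of the family with the broadest activity toward LC3, held 43.6% and 42.3% of this sum in αKO and 42.4% and 50.6% in WT. Atg4d held 17.3% and 23.7% in αKO and 6.29% and 19.6% in WT. In CPM, Atg4d was at 14.4 and 21.1 in αKO and at 4.76 and 15.7 in WT, so αKO replicate 1 lay below WT replicate 2 and the genotypes overlapped. Its fold change was the highest of the members, 0.79, and its exons overlap those of Kri1 on the other strand. Atg4a and Atg4c lay at 11.5 to 20.6 CPM over all libraries, with fold changes of 0.06 and -0.09.

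In the members, gaps between replicate libraries were wider at the median than the fold change between genotypes. The median gap between the WT libraries was 0.60 on the log2 scale and that between the αKO libraries 0.22. The median size of the log2 fold change was 0.14. Over all genes tested these medians were 0.68, 0.309 and 0.312. A gap between 2 single libraries varies more than a fold change fitted to 2 libraries per genotype, so these sizes are not on equal terms. The WT gap was larger than the fold change in 29 of 35 members (82.9%) and in 72.3% of all genes tested. The gaps had the same direction in both genotypes, replicate 1 against replicate 2, in 31 of 35 members (88.6%) and in 71.9% of all genes.

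These gaps followed the GC content of the transcripts. All 8 members under 45% GC (Atg10, Atg12, Atg3, Atg4a, Atg4a-ps, Atg4c, Atg5 and Rb1cc1) were higher in WT replicate 1 than in WT replicate 2. Of the 7 members above 55% GC, 6 were lower there, and Atg9b was the exception. In the 20 members between, 15 were lower and 5 higher in WT replicate 1. Across the 35 members, GC content and the log2 ratio of the WT libraries, replicate 1 over 2, had a Spearman's rho of -0.80. It was -0.67 for the ratio of the αKO libraries and 0.31 for the fold change of αKO over WT. Across 13506 genes the values were -0.73, -0.60 and 0.23, so the members followed a trend of the whole libraries. Genes of 1 library share its preparation and depth and are not independent, and no p is given.

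**Figure D4:**
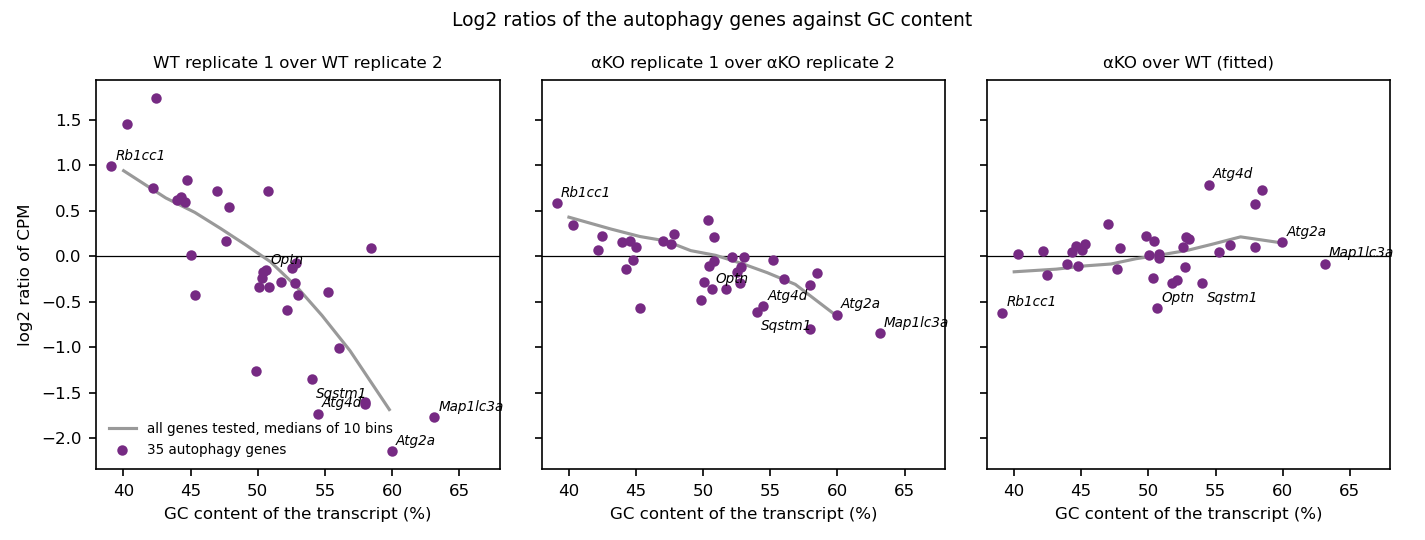
GC content of the longest coding transcript (x axis, %) against the log2 ratio of CPM of WT replicate 1 over 2 (left), of αKO replicate 1 over 2 (middle) and the fitted log2 fold change of αKO over WT (right) for the 35 autophagy genes, with the medians of 10 bins of all genes tested as a line. The points fall along the line from Rb1cc1 to Atg2a and Map1lc3a in the replicate ratios, and run from -0.62 (Rb1cc1) to 0.79 (Atg4d) in the genotype comparison.

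With each library's trend on GC content removed, the median gap of the members shrank to 0.32 between the WT and 0.13 between the αKO libraries. Then 14 of 35 members did not overlap between genotypes, against 47.5% of all genes tested. Higher in αKO cultures were Atg101, Atg4a, Atg4d, Atg5, Atg7, Ulk2 and Uvrag, and lower were Map1lc3a, Gabarapl1, Wipi1, Wipi2, Optn, Nbr1 and Rb1cc1. The set thus split evenly by direction. Rb1cc1 was at 49.8 and 45.5 CPM in αKO and 66.1 and 65.4 CPM in WT on this scale, and its replicates, 1.99-fold apart in WT before, lay together. Sqstm1 still spread within WT, from 759 to 1338 CPM.

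The pathway around these genes was read from lists of regulators and partners, and none of their genes was called at an adjusted p of 0.05 by edgeR (quasi-likelihood or likelihood ratio test), DESeq2 or limma voom. MTORC1 inhibits and AMPK activates ULK1, and the list of 14 genes for them also held regulators such as Tsc1, Tsc2 and Rheb. Its genes thus have no common direction of action on ULK1. Among them, 4 had log2 fold changes above 0 and 10 below, with a median of -0.16. Prkaa2, a catalytic subunit of AMPK, had 66 and 63 counts in αKO and 165 and 128 counts in WT cultures. The fold change was -1.13 on the log2 scale at an unadjusted p of 0.0451 (adjusted p = 0.912, edgeR's quasi-likelihood test), and its αKO libraries lay below both WT libraries. Prkab2, a regulatory subunit of AMPK, had a log2 fold change of -0.61, and Prkaa1, the other catalytic subunit, of -0.35. Of 7 TFEB family and FoxO factors, which activate autophagy genes, 6 were above 0, with a median of 0.45. Tfeb was at 16.4 and 40.4 CPM in αKO and 5.54 and 19.8 CPM in WT, with overlap, Tfe3 was at a log2 fold change of 0.45, and Foxo1 was at -0.50.

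Of 16 genes for fusion of the autophagosome with the lysosome, 12 were above 0, with a median log2 fold change of 0.19. Plekhm1, an adaptor of RAB7 that is required by osteoclasts, had 4804 and 5190 counts in αKO and 2405 and 3154 counts in WT, a log2 fold change of 0.89 at an unadjusted p of 0.0313 (adjusted p = 0.902, edgeR's quasi-likelihood test). Vamp8, a SNARE protein of this fusion, had a log2 fold change of 0.57, and Tecpr1 of 0.69. Of 16 further receptors of selective autophagy, 12 were above 0, with a median of 0.21. Bnip3, a mitophagy receptor, had 2023 and 1103 counts in αKO and 627 and 394 counts in WT, a log2 fold change of 1.65 at an unadjusted p of 0.0119 (adjusted p = 0.902, edgeR's quasi-likelihood test). Wdfy3 was at 0.55, and Park2, the gene of parkin, had only 9 to 51 counts. Of 11 other core genes and partners of the phosphatidylinositol 3-kinase, 7 were above 0 and 4 below, with a median of 0.04. Bcl2, the inhibitor of beclin 1, was at 0.45, Sh3glb1 at -0.32 and Tmem41b at -0.19. In these 5 lists, edgeR's quasi-likelihood test gave 3 of 64 genes an unadjusted p under 0.05, beside 5.39% of all genes tested. The 12 macrophage markers, at a median log2 fold change of 0.95, were higher in the same αKO libraries as Plekhm1 and Bnip3. The 8 osteoclast markers were mixed, with 6 above 0 and 2 below and a median of 0.49. Without overlap were 2 of them, Ocstamp higher and Ctsk lower in αKO, beside 33.2% of all genes tested. The osteoblast markers had a median of -1.32, which rested in part on WT replicate 1, without which Alpl, Ibsp and Postn were above 0. The part of any of these sets of markers in the values of the pathway genes was not tested.

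**Figure D5:**
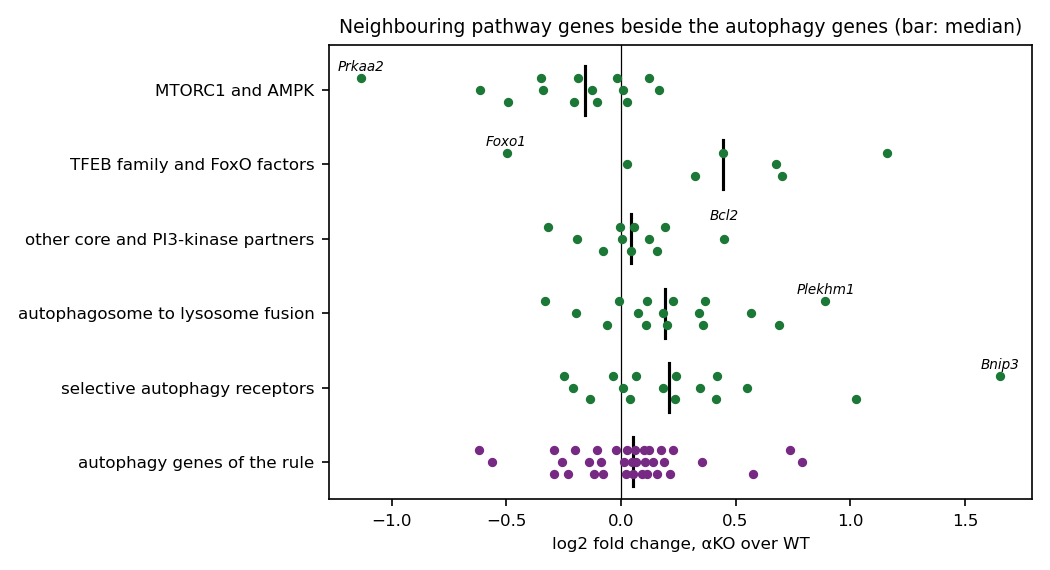
Log2 fold change of αKO over WT (x axis) for each gene of 5 pathway lists (green) and for the 35 autophagy genes (purple), with the median of each as a bar and the gene with the smallest p of each list named. Medians run from -0.16 (MTORC1 and AMPK) to 0.45 (TFEB family and FoxO factors), and the autophagy genes lie around 0.05.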

How the data were processed

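The values start from the raw counts per gene deposited by the authors, who trimmed reads with Trimmomatic 0.35 and counted them with HTSeq 0.9.1 on mm10. The aligner, annotation release and strand setting are not given in the sources used here. The authors also deposited TPM, used for levels between genes, for shares within a family and as one alternative scaling. Their own comparison columns (fold changes and p-values from DESeq2 1.16.1 in R 3.4.0) were not used.

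Genes passing filterByExpr (minimum count 10) were kept, scaled by TMM and compared between 2 αKO and 2 WT libraries by the quasi-likelihood test of edgeR 4.0.16 in R 4.3.3, with Benjamini-Hochberg adjustment over 13571 genes. Alternatives were other scalings, no filter, DESeq2 1.42.0, the likelihood ratio test, limma 3.58.1 (voom), a replicate block, a GC offset (lowess, span 0.3; 65 genes without GC content) and leaving out each library. The procedure was also run on simulated counts with known fold changes. These had the same spread for every gene and no trend with GC content, so that run does not show the power in these libraries. GC content, positions and coding sequences came from GENCODE M21.

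Fold changes with errors were given for members whose genotypes did not overlap in CPM and for the LC3 and GABARAP genes, other members by level and range, and at most 3 genes of each pathway list, those with the smallest unadjusted p. Single values of other members were named after they were seen. The members and lists were chosen with earlier results of these data known.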

Additional observations from a re-analysis of the deposited data

How the results depend on the processing

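edgeR's quasi-likelihood test called 0 members at an adjusted p of 0.05, and 0 to 2 with 1 library left out. Members at an unadjusted p under 0.05 numbered 0, but 2 with the GC offset (Optn, Rb1cc1), 1 with the replicate block (Atg4d), 3 with the replicate block and GC offset together (Atg4d, Optn, Rb1cc1), and 0 to 6 with 1 library left out. The shares of all genes at this p were 5.39%, 11.7% with the GC offset, 11.1% with the replicate block, 13.6% with both, and 1.65% to 22.8% with 1 library left out. Among all genes, 0 were called at an adjusted p of 0.05 by the quasi-likelihood test, 50 by DESeq2, 28 by the likelihood ratio test, 1 with the replicate block and 1 to 806 with 1 library left out. The replicate numbers are not stated to mark a shared animal or day. Deviations of same-numbered libraries correlated at 0.459 (Pearson) over 13523 genes.

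Members without overlap between genotypes numbered 5 in TMM-scaled CPM, 7 with library sizes alone and 4 with DESeq2 size factors, against 33.2%, 33.8% and 33.2% of all genes. They numbered 9 in the deposited TPM and 14 with the GC trend removed, against 35% and 47.5%. For this count, the scalings other than TMM were added after the data were seen. Reversed log2 fold changes were -0.022 for Becn1 and -0.034 for Map1lc3b with library sizes alone, 0.12 for Map1lc3a and 0.019 for Gabarap in limma voom, 0.11 for Map1lc3a and 0.019 for Gabarap with the replicate block, -0.14 for Map1lc3b with the GC offset, and -0.14 for Map1lc3b and 0.0029 for Gabarap with block and offset. With 1 library left out, the range was -0.68 to 1.03 for Map1lc3a, -0.11 to 0.22 for Map1lc3b, -0.38 to 0.41 for Gabarap, -0.26 to 0.023 for Gabarapl1 and -0.16 to 0.39 for Gabarapl2. The cause was not tested. The other 113 single-gene values, Optn, Atg9b, Atg13 and Uvrag among them, kept their direction and their side of an adjusted p of 0.05. The genes named here were picked for lack of overlap, so leaving out 1 library could hardly turn their direction. The lowest count of a member in a library was 18 (Atg4a-ps) and the highest 40043 (Sqstm1), and the intervals of both reached more than 1 on the log2 scale to either side.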
